A study of Mus musculus with 15 samples.

Results

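MHC class II genes encode the machinery that shows peptides from engulfed material to helper T cells. The genes described here are its 7 best known members in the mouse: the chains H2-Aa, H2-Ab1 and H2-Eb1, the invariant chain Cd74, the peptide editor subunits H2-DMa and H2-DMb1, and the transactivator Ciita. They were chosen by symbol for their role in the pathway, with earlier results of these data known. All 7 were found among the 54532 genes of the deposited table. The chains and Cd74 were not called different between MI and Sham hearts and varied more widely among MI hearts, while general leukocyte, macrophage and antigen-processing genes rose. H2-DMa, a low-level gene, was the 1 member called higher after infarction, where 43.8% of all genes tested were called. That call did not hold under many other settings. No member was called different in hearts of mice given the inhibitor GSK-343. Of all genes tested, 0% were called in GSK against MI hearts and 18.3% in GSK against Sham hearts.

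Alpha and beta chains pair in the endoplasmic reticulum, where CD74 fills the groove and guides the pair to endosomes. Proteases there trim CD74 to a small fragment, and the DM editor exchanges that fragment for peptides. In the heart the pathway is known mainly from macrophages, dendritic cells and B cells, and interferon gamma can induce it in other cells. CIITA binds no DNA itself and acts through RFX and NF-Y proteins seated on the X and Y boxes of class II promoters. C57BL/6 mice carry a defective E alpha gene, so their E beta chain lacks its usual partner.

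Left ventricles were taken on day 8 after surgery from C57BL/6JRj mice, all female and 12 to 18 weeks old, and their RNA was sequenced. Sham mice had the surgical control procedure and MI mice had permanent ligation of a coronary artery, and both were given the vehicle, 20% Captisol. GSK mice were given GSK-343, an inhibitor of the H3K27 methyltransferase EZH2, at 20 mg/kg into the abdomen each day from 6 h after surgery to day 7. Each group held 5 libraries. That the GSK hearts were infarcted is read from the protocol, as the names of these samples give the compound alone. RNA of 2 animals was mixed in Sham replicate 1 and likewise in Sham replicate 2. Fragments assigned to genes numbered 21.5 M in the smallest library and 26.8 M in the largest. MI replicate 4 and GSK replicates 3 and 4 had mitochondrial shares of 40.6%, 46.4% and 48.7% of all FPKM, above the other infarcted hearts, which ranged from 23.2% to 32.7%, and near or above the Sham range of 41.2% to 42.2%. FPKM are fragments per kilobase of gene, scaled by a library total, so levels of different genes can be set side by side. The total implied by the values was not the sum of assigned fragments. It was 22.2 M against 23.6 M assigned in Sham replicate 1, and 28.0 M against 23.8 M in MI replicate 2. It lay below the assigned sum in every Sham library, MI replicate 4 and GSK replicates 3 and 4, and above it elsewhere. Group differences rest on this scale, and levels per assigned fragment were not compared.

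The promoters of 2 members show how the shared control is written in sequence. They are printed 5′ to 3′ on the gene's strand from 150 to 11 bases before the RefSeq start, on GRCm38.p6, with the X box letters and the ATTGG of the Y box in capitals. H2-Aa lies at chr17:34287834-34287973 on the minus strand, and H2-Eb1 at chr17:34305717-34305856 on the plus strand.
H2-Aa: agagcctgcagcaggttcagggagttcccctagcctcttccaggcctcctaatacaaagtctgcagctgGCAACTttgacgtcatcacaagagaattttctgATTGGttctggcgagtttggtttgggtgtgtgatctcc
H2-Eb1: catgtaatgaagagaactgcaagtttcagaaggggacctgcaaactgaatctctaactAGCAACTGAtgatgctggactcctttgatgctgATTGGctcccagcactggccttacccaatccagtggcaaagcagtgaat

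Windows of 250 bases before to 50 after the RefSeq start were searched on both strands for AGNNACNNA, a core of the X box, followed on the same strand by ATTGG after 10 to 40 bases. Of the 4 members with such a window in the reference table, H2-Eb1 and H2-DMb1 held the pair, as did 482 of all 32851 windows (1.47%). H2-Aa did not. A shorter form, GNAACT followed by ATTGG at the same spacing, was added after the sequences were seen. It is found in H2-Aa and in 1.34% of all windows, and 2.65% of windows hold either pair. Both forms overlap in H2-Eb1 and in H2-DMb1. In H2-Eb1 the X letters start 92 bases before the RefSeq start and 24 bases separate them from ATTGG, and in H2-Aa they start 81 bases before it with 27 bases between. The H2-DMb1 pair starts 95 bases before its RefSeq start with 25 bases between, but the gene model of the deposited table begins 119 bases upstream of that start and so includes it. Neither window of H2-DMa held a pair, and the RefSeq starts of both lie 9664 or more bases upstream of the deposited start of that gene. Among 4 other class II genes with a window, H2-Oa, H2-Ob and H2-Eb2 held the planned pair and H2-DMb2 did not. A match describes letters and not occupancy.

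H2-Ab1 encodes the beta chain of the A molecule, the class II pair that C57BL/6 mice display. It lies on chromosome 17 from 34263209 to 34269418 on mm10, as the deposited table gives it. H2-Ab1 read 28.0, 30.9, 32.6, 24.6 and 26.9 FPKM in Sham replicates 1 to 5. Among MI hearts it read 27.9, 32.2, 53.8, 20.4 and 28.1 FPKM, and in GSK hearts 32.7, 21.1, 19.7, 22.0 and 28.4 FPKM. MI replicate 3 stood far above every other library and MI replicate 4 below every Sham library, so the groups overlapped in all 3 comparisons. Group means were 28.6 ± 3.17, 32.5 ± 12.7 and 24.8 ± 5.54 FPKM (SD, n = 5) in Sham, MI and GSK.

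H2-Aa encodes the alpha chain that pairs with it and lies on chromosome 17 from 34282744 to 34287827. Sham hearts held 21.3, 23.2, 23.2, 18.3 and 20.3 FPKM of H2-Aa. In MI hearts the values were 20.8, 26.1, 38.7, 17.6 and 18.9 FPKM, and in GSK hearts 24.7, 14.2, 14.7, 16.2 and 19.8 FPKM. Again MI replicate 3 was highest, and 3 of the 5 GSK libraries lay below the lowest Sham value of 18.3 FPKM. H2-Eb1, the beta chain of the E molecule, lies on chromosome 17 from 34305877 to 34316199. Its Sham values were 34.1, 39.9, 34.8, 28.3 and 31.3 FPKM, its MI values 34.1, 38.8, 65.0, 22.8 and 31.1 FPKM, and its GSK values 37.3, 24.5, 22.7, 23.4 and 31.2 FPKM. H2-Eb1 was the most abundant of the chains, with 33.3 FPKM over all 15 libraries against 28.6 for H2-Ab1 and 21.2 for H2-Aa, while H2-Ea-ps, the defective E alpha gene, reached at most 0.0657 FPKM in any library and is named here for its role.

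Cd74 encodes the invariant chain, which also serves as a surface receptor for the cytokine MIF. It lies on chromosome 18 from 60803848 to 60812646. Cd74 had the highest level of the 7 members, at 73.0, 82.1, 80.0, 62.4 and 75.6 FPKM in Sham hearts. MI hearts held 71.6, 91.8, 131, 57.1 and 74.5 FPKM of Cd74, and GSK hearts 79.1, 51.0, 53.5, 63.4 and 70.7 FPKM. As for the chains, MI replicate 3 was the highest of the 15 libraries and MI replicate 4 the lowest of its group. Means were 74.6 ± 7.72, 85.3 ± 28.6 and 63.5 ± 11.8 FPKM (SD, n = 5) in Sham, MI and GSK. The relative spread of MI hearts was wide, with a coefficient of variation of 33.5% for Cd74 against 10.4% in Sham hearts, and of 41.7% against 12.8% for H2-Eb1.

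H2-DMa and H2-DMb1 encode the subunits of the DM editor and were about an order of magnitude below the chains. H2-DMa lies on chromosome 17 from 34135182 to 34139101 and H2-DMb1 from 34153072 to 34160230. H2-DMa read 2.14, 3.26, 2.64, 1.72 and 2.29 FPKM in Sham hearts. In MI hearts it read 3.11, 3.98, 4.64, 2.68 and 3.45 FPKM, and in GSK hearts 4.34, 3.12, 1.83, 2.58 and 2.55 FPKM. The Sham and MI ranges overlapped, since Sham replicate 2 exceeded MI replicates 1 and 4. These values rest on 60 to 209 fragments per library. H2-DMb1 read 2.64, 3.30, 4.12, 2.29 and 2.12 FPKM in Sham hearts, 3.31, 5.05, 6.43, 2.74 and 3.97 FPKM in MI hearts, and 4.52, 2.99, 2.54, 2.32 and 3.24 FPKM in GSK hearts. Its near copy H2-DMb2 averaged 0.43 FPKM, and how fragments shared by both were counted is not given in the sources used here.

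Ciita, the coactivator that switches the other 6 genes on, lies on chromosome 16 from 10480059 to 10528418 and was the lowest member. Sham hearts held 0.236, 0.342, 0.417, 0.415 and 0.360 FPKM, MI hearts 0.504, 0.633, 0.528, 0.221 and 0.472 FPKM, and GSK hearts 0.497, 0.299, 0.229, 0.288 and 0.376 FPKM. In 4 of 5 MI hearts the value was above every Sham heart, while MI replicate 4 held the lowest value of all 15 libraries. Between 44 and 169 fragments stood behind each value. The gene overlaps Dexi on the other strand, and the strand setting of the counting is not given in the sources used here. Ciita did not reach the filter of 1 FPKM in 5 libraries, so 6 of the 7 members were tested.

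**Figure D1:**
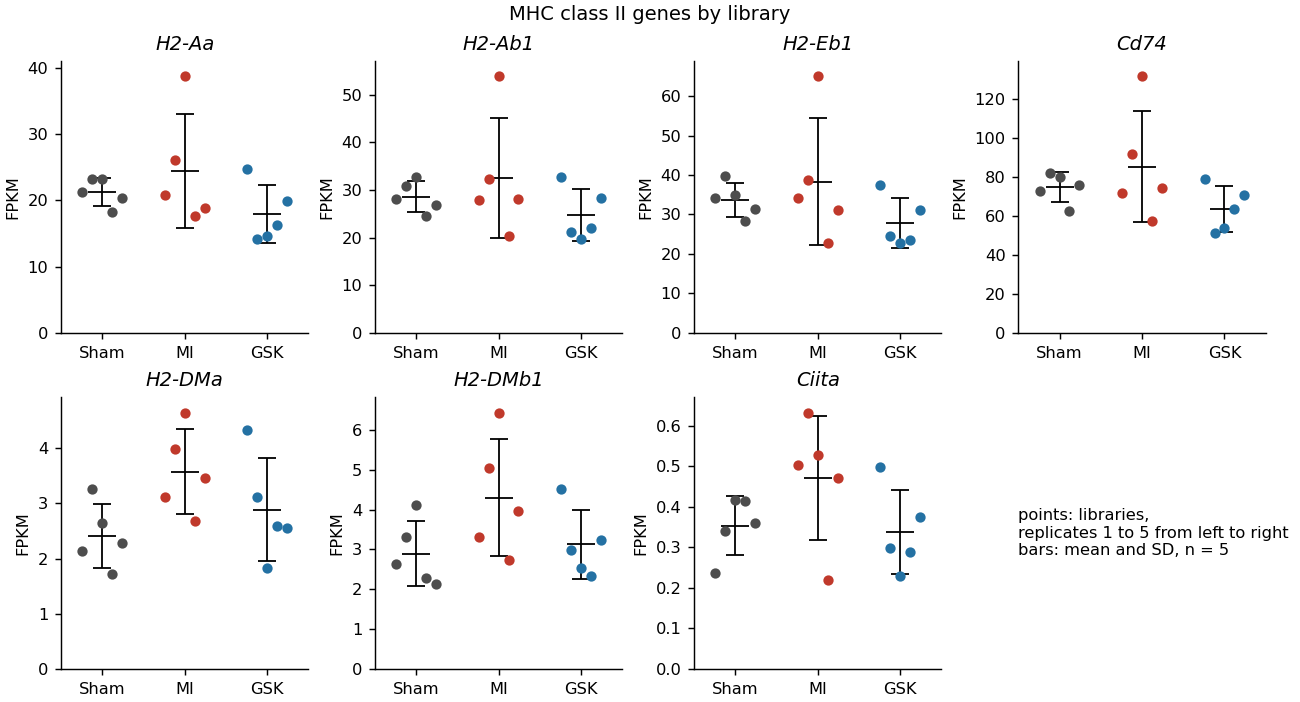
FPKM of the 7 class II members in Sham, MI and GSK hearts, 1 point per library with replicates 1 to 5 from left to right and the mean and SD (n = 5) as bars. The groups overlap for every member, and MI replicate 3 is the highest library for 6 of the 7.

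MI hearts were compared with Sham hearts to ask what infarction changes. The chains and Cd74 differed by 0.11 to 0.14 on the log2(FPKM + 1) scale and none was called. H2-Aa differed by 0.14 (SE 0.19, 95% interval -0.26 to 0.54, adjusted p = 0.571). For Cd74 the difference was 0.14 (SE 0.19, interval -0.26 to 0.53, adjusted p = 0.569). H2-Ab1 and H2-Eb1 differed by 0.11 each, with adjusted p = 0.676 and 0.711. All 4 estimates turned negative without MI replicate 3, to between -0.10 and -0.031, so their sign rested on that library. The intervals leave room for a rise or a fall of moderate size.

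H2-DMa was higher in MI hearts by 0.42 (SE 0.16, interval 0.079 to 0.77, adjusted p = 0.045), with mean FPKM 1.48 times that of Sham hearts. H2-DMb1 had a like estimate of 0.43 (SE 0.19, interval 0.023 to 0.83) but missed the threshold, with adjusted p = 0.0798. That made 1 of 6 tested members called, where 43.8% of all 12585 genes were called, 2757 higher and 2758 lower. With mitochondrial genes removed and totals equalised the split over all genes became 3302 higher and 1903 lower, and H2-DMa was again the 1 member called. No member had groups without overlap, against 29.8% of all genes tested. The H2-DMa call was lost in 15 of 27 alternatives, among them leaving out any 1 of Sham replicates 1, 3, 4 and 5, MI replicates 2, 3 and 5 or GSK replicates 2, 4 and 5, with adjusted p between 0.0517 and 0.116 in these. H2-DMb1 was called without Sham replicate 3 (adjusted p = 0.0392) or MI replicate 4 (adjusted p = 0.0293). Fitted without a filter on low values, Ciita differed by 0.12 (adjusted p = 0.366), where 18.4% of genes were called.

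GSK hearts were compared with MI hearts to ask whether the EZH2 inhibitor moved the response. All 6 tested members had lower estimates in GSK hearts, from -0.40 for H2-Aa to -0.25 for H2-DMa, and none was called, as none of all genes was (0%). H2-Aa differed by -0.40 (SE 0.19, interval -0.80 to 0.0048, adjusted p = 0.243) and Cd74 by -0.38 (SE 0.19, interval -0.78 to 0.016, adjusted p = 0.255). For H2-Eb1 the difference was -0.39 (adjusted p = 0.305), for H2-DMb1 -0.34 (adjusted p = 0.305), for H2-Ab1 -0.33 (adjusted p = 0.351) and for H2-DMa -0.25 (adjusted p = 0.374). At an unadjusted limma p under 0.05 there were 2638 genes and 0 members. With voom on recovered fragments 2 genes were called, neither of them a member, and 1 member had an unadjusted p under 0.05. Ciita differed by -0.13 without the filter (adjusted p = 0.509), where 0% of genes were called. This comparison shares the MI libraries with the one before, so opposite signs in the pair are partly built in.

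Against Sham hearts, GSK hearts had estimates below 0 for the chains and Cd74 and above 0 for the DM subunits. Cd74 differed by -0.24 (interval -0.64 to 0.15, adjusted p = 0.375) and H2-Eb1 by -0.28 (interval -0.74 to 0.17, adjusted p = 0.368). H2-DMa differed by 0.17 (adjusted p = 0.476) and H2-DMb1 by 0.08 (adjusted p = 0.785). None of the 6 had an unadjusted limma p under 0.05, where 34.7% of all genes did. None was called either, where 18.3% of all genes were called, 1354 higher and 954 lower. With mitochondrial genes removed and totals equalised that split was 1945 to 426, and the median of all genes moved from -0.02 to 0.09. Without the filter Ciita differed by -0.02 (adjusted p = 0.952), with 5.1% of genes called.

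**Figure D2:**
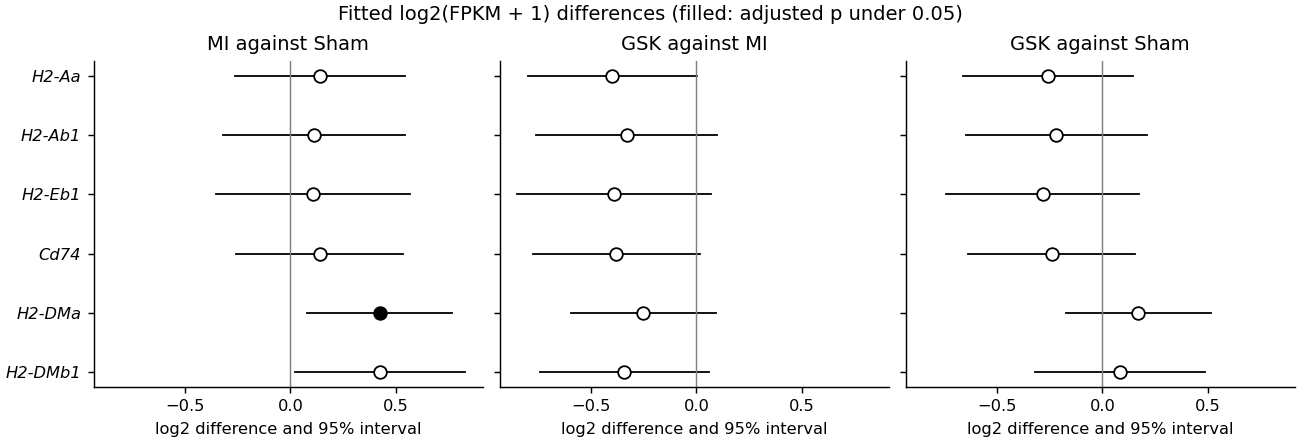
Fitted log2(FPKM + 1) differences of the 6 tested members with 95% intervals in each of the 3 comparisons, filled where the adjusted p is under 0.05. H2-DMa in MI against Sham is the 1 filled point, at 0.42.

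Within libraries the chains and Cd74 kept nearly fixed proportions, and the DM subunits varied more against them. After subtraction of group means, log2 levels of the chains and Cd74 correlated at r = 0.95 to 0.98 over the 15 libraries in all 6 pairs, and these 4 genes with the DM subunits at r = 0.74 to 0.89. These correlations describe libraries that share a scale, and they say nothing of cause. Cd74 to H2-Ab1 had an FPKM ratio of 2.61 ± 0.135 (SD, n = 5) among Sham hearts, of 2.66 ± 0.167 among MI hearts and of 2.59 ± 0.21 among GSK hearts. H2-Eb1 to H2-Ab1 stood at 1.18 ± 0.0833, 1.17 ± 0.0545 and 1.12 ± 0.0391 in the same order.

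The ratios of the DM subunits to H2-Ab1 had higher means in MI and GSK than in Sham hearts, with overlapping groups and without passing correction. H2-DMa to H2-Ab1 was 0.0764, 0.106, 0.081, 0.070 and 0.0851 in Sham hearts. MI hearts had 0.111, 0.124, 0.0863, 0.131 and 0.123, and GSK hearts 0.133, 0.148, 0.0929, 0.118 and 0.0896. MI replicate 3, the library with most class II RNA, had the lowest H2-DMa ratio of its group. The ratio was 1.38-fold higher in MI than in Sham hearts (exact two-sided permutation p = 0.0159), and for H2-DMb1 1.35-fold higher (exact permutation p = 0.0238). In GSK against Sham hearts the ratios were 1.38-fold and 1.27-fold higher (exact permutation p = 0.0397 for each), and p rose above 0.05 in 7 of 12 alternatives for H2-DMa, up to 0.0794, and in 9 of 12 for H2-DMb1, up to 0.0893. Over the 15 ratio tests, 5 ratios in 3 comparisons, each of these 4 had a Benjamini-Hochberg adjusted exact p of 0.149. With 5 libraries against 5 the smallest possible p is 0.00794. These ratios were chosen after the values had been seen.

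**Figure D3:**
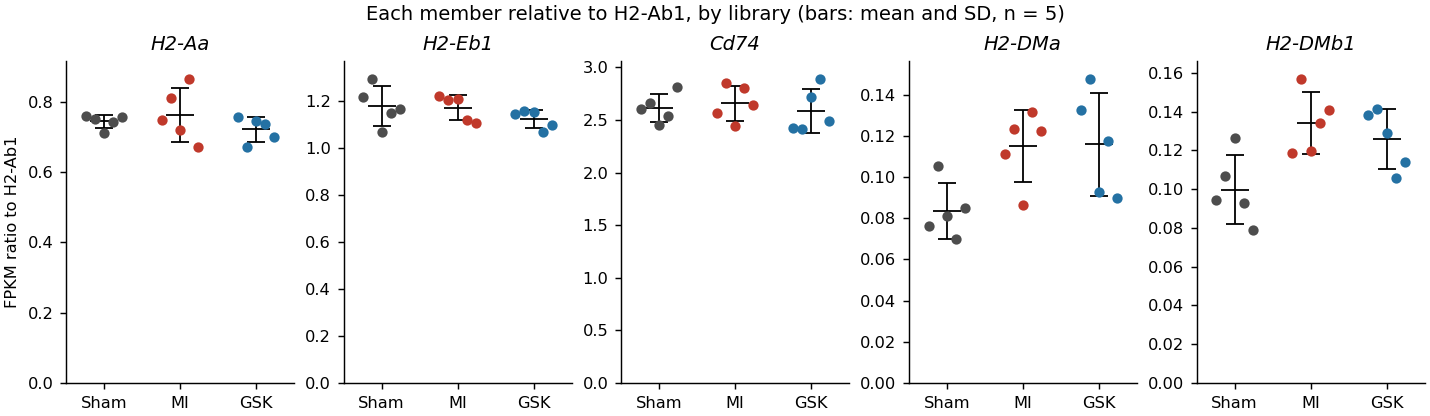
FPKM of each member divided by FPKM of H2-Ab1 in the same library, 1 point per library with mean and SD (n = 5) as bars, in Sham, MI and GSK hearts. All 5 ratios overlap between the groups, and those of H2-DMa and H2-DMb1 have higher means in MI and GSK hearts.

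The other genes of the pathway moved in different ways after infarction. Of 10 endosomal processing genes, all tested, 8 rose in MI hearts, none fell and 2 were not called, with a median difference of 0.71 against -0.02 over all genes. Of all genes, 43.8% were called in this comparison. Ctss, the cathepsin that trims CD74 in macrophages and dendritic cells, rose by 2.11 (SE 0.36, adjusted p = 0.000374), from at most 18.7 FPKM in Sham hearts to 39.6 to 164 FPKM. Ifi30, a reductase that opens disulfide bonds of antigens, rose by 1.66 (adjusted p = 0.000147), and the abundant Ctsb by 0.94 (adjusted p = 4.14e-05). In GSK against Sham hearts 5 of the 10 were higher, Ctss by 1.25 (adjusted p = 0.0280), where 18.3% of all genes were called. The count of 5 fell to 2 in 8 alternatives, among them leaving out Sham replicate 1, 2 or 4 or GSK replicate 1 or 5. Against MI hearts none was called, where 0% of all genes were.

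Factors that sit on class II promoters changed in both directions. Of 10 tested, 2 rose and 4 fell in MI hearts, with a median of -0.19, and 4 were not called, where 43.8% of all genes were called. Rfxank, an RFX subunit, rose by 0.68 (adjusted p = 0.000396), with a mean FPKM 1.79 times that of Sham hearts, while its partner Rfxap fell by 0.27 (adjusted p = 0.0208), and Rfx5, the third subunit, differed by -0.16 (adjusted p = 0.268). Nfyc, a subunit of NF-Y, fell by 0.30 (adjusted p = 0.0311). With mitochondrial genes removed and totals equalised, none of the factors was called lower, and without Sham replicate 4 only 1 was, without Sham replicate 5 or MI replicate 3 only 2. The count of factors that rose was 1 without Sham replicate 1, 2 or 5 or MI replicate 2 or 3. Ifng, the gene of interferon gamma, was listed at 0 in 12 of 15 libraries and reached at most 0.0719 FPKM. Of 6 tested genes of its signalling path, Ifngr1, a receptor chain, rose by 0.40 (adjusted p = 0.00588), and the other 5 were not called.

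**Figure D4:**
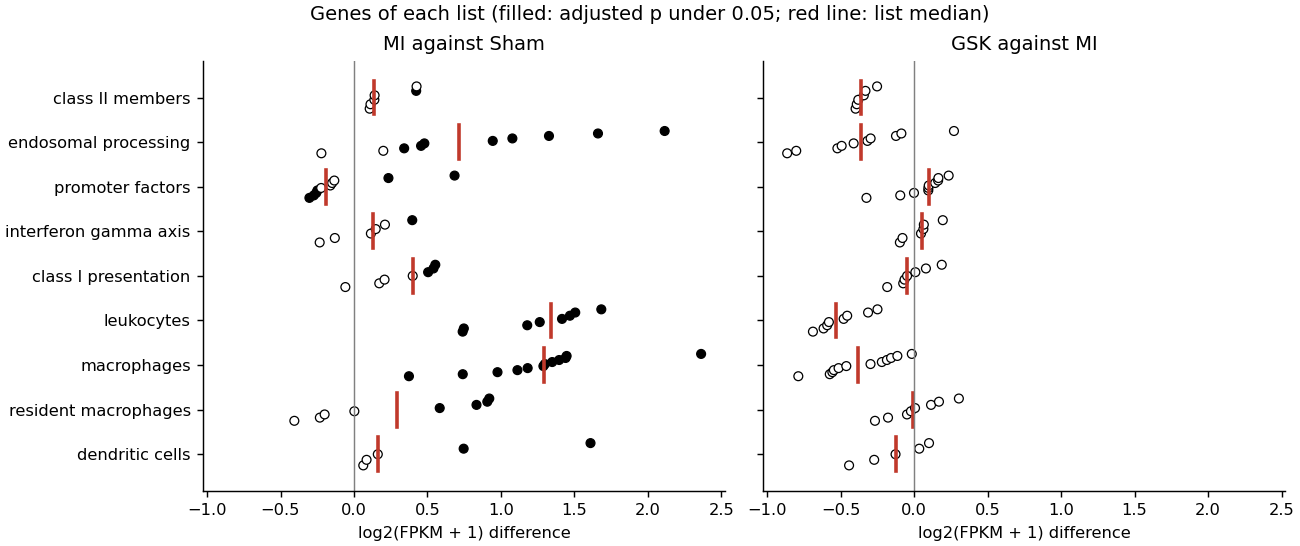
Log2(FPKM + 1) differences of the tested genes of 9 lists, MI against Sham on the left and GSK against MI on the right, 1 point per gene, filled where the adjusted p is under 0.05, with the list median as a red line. In MI against Sham the class II members lie near 0.1 to 0.4, while leukocyte and macrophage genes lie at medians of 1.34 and 1.29.

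General leukocyte and macrophage genes rose in MI hearts, with larger median differences than the 0.14 of the members, while resident macrophage markers had a median of 0.29 and the tested dendritic cell genes of 0.16. In bulk tissue more cells of a type and more RNA per cell cannot be told apart. All 8 leukocyte genes rose, with a median of 1.34, among them Laptm5 by 1.68 (adjusted p = 6.64e-06) and Ptprc, the pan-leukocyte CD45, by 0.75 (adjusted p = 0.00234). All 12 macrophage genes rose, with a median of 1.29, among them Cd68 by 2.36 (adjusted p = 2.45e-06) and Lyz2 by 1.35 (adjusted p = 0.00019). Ccr2, a receptor of recruited monocytes, rose by 1.24 (adjusted p = 0.000885). Of 8 markers of resident macrophages 4 rose (2 without Sham replicate 2), Mrc1 and Cbr2 among them, and Lyve1 was among the 4 not called (-0.41, adjusted p = 0.137). That share was near the 43.8% of all genes called in MI against Sham hearts. In GSK against Sham hearts 6 of the 8 leukocyte and 9 of the 12 macrophage genes were higher, with 3 of the leukocyte genes without the mixed Sham libraries. Of all genes, 18.3% were called in this comparison. Against MI hearts none of either list was called, as none of all genes was, their medians being -0.53 and -0.38. Those sets were counted with earlier results of these data in view.

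The summed FPKM of the 8 leukocyte genes ran from 28.4 to 32.5 in Sham, 65.4 to 113 in MI and 47.3 to 82.7 in GSK hearts. The FPKM ratio of Cd74 to that sum was 2.20 to 2.67 in Sham hearts, 0.674 to 1.33 in MI hearts and 0.957 to 1.34 in GSK hearts, so Sham hearts did not overlap with either. The sum itself did not overlap either, and the share of all genes whose ratio separates in this way was not counted. For H2-DMa the ratio overlapped between Sham (0.0607 to 0.106) and GSK hearts (0.0367 to 0.0630). As a description, the mean log2 level of the leukocyte genes was also subtracted from every gene in each library. This scale was chosen after seeing the data and restates the rise of the leukocyte genes, so it is no further test. On it the MI to Sham differences of the 6 members were -1.14 (SE 0.21) for H2-Eb1 to -0.82 (SE 0.17) for H2-DMb1. The median of all genes was -1.27 and 94.4% of them were called, so nothing particular to the members is shown. The GSK to Sham differences were -1.04 to -0.58, with 85.3% of all genes called, and the GSK to MI differences 0.10 to 0.24, with 42.2% called.

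**Figure D5:**
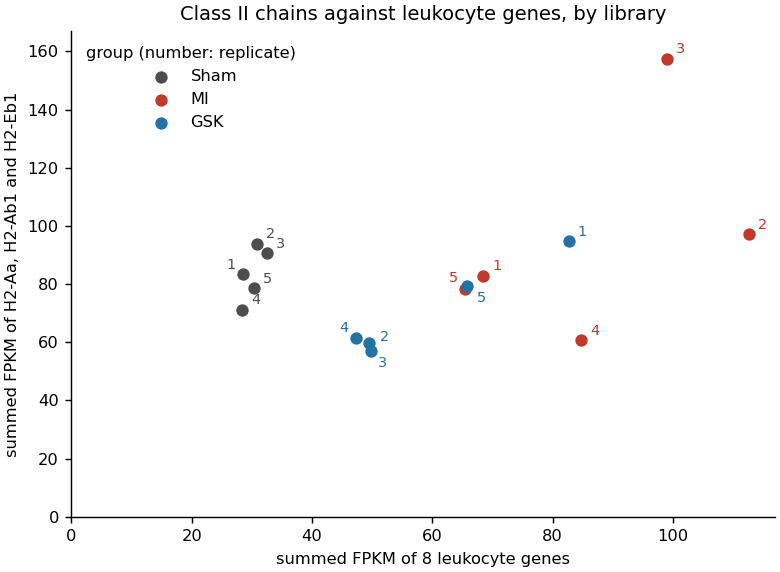
Summed FPKM of H2-Aa, H2-Ab1 and H2-Eb1 against summed FPKM of 8 leukocyte genes, 1 point per library, numbered by replicate and coloured by group. Leukocyte sums of all Sham libraries lie at 28.4 to 32.5, below every MI and GSK library, while the chain sums of the groups overlap.

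Dendritic, B and T cell markers were low. Of 12 dendritic cell genes 5 were tested, and Fscn1 (1.61, adjusted p = 5.78e-06), which stromal cells express too, and Irf8 (0.75, adjusted p = 0.000203) rose in MI hearts. The other 3 tested, Zbtb46 (0.09, adjusted p = 0.268), Clec10a (0.16, adjusted p = 0.414) and Clec9a (0.06, adjusted p = 0.639), were not called. This share, too, was near the 43.8% of all genes called there. Flt3, a defining marker, stayed at or below 0.226 FPKM in every library. Without the filter, Flt3 (0.095, adjusted p = 0.0462) and Itgax (0.60, adjusted p = 0.00324) were higher in MI hearts, where 18.4% of genes were called. The other dendritic cell genes below the filter were not called. The 12 dendritic genes summed to 17.4 to 20.7 FPKM in Sham, 38.5 to 54.7 in MI and 30.3 to 47.5 in GSK hearts, of which Fscn1 alone held 10.1 to 13.3, 29.4 to 43.0 and 21.5 to 37.7 FPKM. Of 12 B cell genes 2 were tested. Blk rose in MI hearts (0.79, adjusted p = 0.000984) and Ighm was not called (0.95, adjusted p = 0.256). In GSK against Sham hearts 1 of the 2 was higher. Over all genes 43.8% and 18.3% were called in these comparisons. Without the filter, Cd79b, Cd22 and Ighd were also higher in MI hearts (adjusted p = 0.00689, 0.04 and 0.0435). The others below the filter were not called, where 18.4% of genes were. Cd79a reached 3.53 FPKM in MI replicate 3 and at most 0.690 FPKM in every other library. The B cell sum ran from 6.19 to 19.1, 14.0 to 56.4 and 10.5 to 67.3 FPKM in Sham, MI and GSK hearts, mostly from Ighm. Its high value in GSK replicate 3 came with Cd79a at or below 0.690 FPKM. The part of B cells in the high class II level of MI replicate 3 was not tested. None of 12 T cell genes reached the filter, and Cd4, the coreceptor that binds class II, stayed at or below 0.593 FPKM. Fitted without the filter, Cd4 (0.31, adjusted p = 0.00837) and Cd3e (0.053, adjusted p = 0.0223) were higher in MI hearts. The other T cell genes were not called, where 18.4% of genes were.

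The genes outside the pathway whose group-centred levels most resembled the mean of the members were Izumo4 (r = 0.93), Cpt1c (0.92), Lrrc45 (0.92), C1qtnf2 (0.92), Mn1 (0.91), Cacng7 (0.91), Lpcat4 (0.90) and Mast3 (0.90), over the same 15 libraries. Without MI replicate 3 these r were 0.85 to 0.91. None belongs to the leukocyte or macrophage lists, but these lists hold so few of the genes tested that this was likely in any case. Whether the members varied with leukocyte or macrophage genes within groups was not tested.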

How the data were processed

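Poly-A RNA of the left ventricle was sequenced in 15 libraries, 5 each of Sham, MI and GSK. The authors deposited FPKM for 54532 genes with gene lengths and coordinates on mm10. The submitters' processing notes list R 3.5.1, DESeq2, Subread, featureCounts and HISAT2 without their roles. Annotation release and strand setting: not given in the sources used here. FPKM times gene length gave whole fragments for 100% of values within 0.01, used as depth and with voom as an alternative. Voom took the totals implied by the FPKM values as library sizes, so it kept their scale.

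FPKM were transformed as log2(FPKM + 1), which understates changes of low genes such as Ciita. Genes with at least 1 FPKM in 5 of 15 libraries, 12585 in all, were fitted with limma 3.58.1 in R 4.3.3 (group means, all libraries, eBayes with trend). Every adjusted p is Benjamini-Hochberg over all genes tested, called under 0.05. The fit was tested on simulated data. Ratios were tested by exact permutation over libraries. Named genes were all members, up to 4 per list by mean FPKM and genes of a stated role, and the 8 most alike genes. The members and lists were chosen with earlier results of these data known. Alternatives changed pseudocount, filter, scaling, samples and model.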

Additional observations from a re-analysis of the deposited data

Results flagged for a closer look

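A total of 5 group values stood apart from the other 4 libraries of their group by a gap test at the 95% level, out of 69 groups tested, and chance alone flags about 1 group in 20. The summed FPKM of 12 B cell genes was 19.1 in Sham replicate 1 against 6.19 to 8.17 in the other Sham hearts. It was 56.4 in MI replicate 3 against 14.0 to 21.5 in the other MI hearts, and 67.3 in GSK replicate 3 against 10.5 to 15.4 in the other GSK hearts. The FPKM ratio of H2-Aa to the 8 leukocyte genes was 0.342 in GSK replicate 4 against 0.286 to 0.301 elsewhere in its group. Ciita had a ratio to the same sum of 0.00459 in GSK replicate 3 against 0.00571 to 0.00609. No FPKM value of a member stood apart by this test, MI replicate 3 included.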

How the results depend on the processing

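In MI against Sham, the count of members called was 1 and became 0 without a filter, with quantile normalization, without the mixed Sham libraries, or without both MI 2 and MI 3, and 2 without MI 4, GSK 3 and GSK 4. Leaving out single libraries gave 0 to 2. Leaving out MI 2 and MI 3 together was chosen after seeing that they were highest in the chains, so it describes what rests on them and is no test; it turned H2-Aa to -0.14, H2-Ab1 to -0.17, H2-Eb1 to -0.20 and Cd74 to -0.14, and 29.2% of genes were called. In single omissions the same 4 ran from -0.035 to 0.24, -0.084 to 0.26, -0.10 to 0.27 and -0.031 to 0.27, lowest without MI 3. In GSK against MI and GSK against Sham no member was called in any of the 27 alternatives. H2-DMb1 in GSK against Sham ran from -0.028, without GSK replicate 1, to 0.19 in single omissions. With the replicate block, 0 members were called in each comparison, and the H2-DMa adjusted p was 0.0514; same-numbered libraries correlated at -0.41 to 0.49, so the numbers were not taken as pairs. The share of genes called in GSK against MI reached 3.11% without MI replicate 1, and in GSK against Sham it ran from 5.1% to 27.6%.

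On the leukocyte scale, a description only, the counts of members called were 6 throughout in MI against Sham, 5 or 6 in GSK against Sham and 0 in GSK against MI. There H2-Aa, H2-Eb1 and Cd74 turned to -0.038, -0.052 and -0.097 without MI 4, GSK 3 and GSK 4, and in single omissions H2-Eb1 ran from -0.047 to 0.25 and Cd74 from -0.0044 to 0.23, lowest without MI 4. Of all genes, 91.5% to 95.1% were called on that scale in MI against Sham and 71.7% to 86.9% in GSK against Sham. The share of genes called in GSK against MI on that scale ran from 0% to 77.4%. Ratios near 1 changed sign in single omissions: H2-Aa to H2-Ab1 in MI against Sham (-0.016 to 0.075), H2-Eb1 (-0.041 to 0.028), Cd74 in GSK against Sham (-0.058 to 0.0095) and H2-DMa in GSK against MI (-0.10 to 0.087), as log2. H2-Eb1 to H2-Ab1 was 0.056 without the mixed Sham libraries and 0.011 without MI 4, GSK 3 and GSK 4, where H2-Aa to H2-Ab1 was -0.016. The causes were not tested. Low counts limit Ciita and the DM subunits.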

Other observations

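Class I presentation, which shows peptides from inside the cell to cytotoxic T cells, was tested beside class II with 7 genes. In MI against Sham hearts 3 rose and none fell, with a median of 0.40, a share near the 43.8% of all genes called there. B2m, the light chain shared by all class I molecules, rose by 0.54 (SE 0.15, adjusted p = 0.0101) and the heavy chain gene H2-D1 by 0.55 (SE 0.15, adjusted p = 0.00777), while H2-K1 differed by 0.40 (adjusted p = 0.0667). In GSK against Sham hearts B2m, the 1 gene of the 7 called, was higher by 0.73 (adjusted p = 0.00623), where 18.3% of all genes were called. None of the 7 was called in GSK against MI hearts, where limma called no gene.

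Of 5 tested costimulatory genes, Cd40 rose by 0.61 (adjusted p = 0.00116) and Cd86 by 0.40 (adjusted p = 0.0141) in MI hearts, and the other 3 were not called, again near the share over all genes. That count ran from 0 to 3 over 27 alternatives. Among genes of class II turnover and CD74 signalling, Mif, the ligand of CD74, rose by 0.88 (adjusted p = 0.00179) and Cd44, its signalling partner, by 1.27 (adjusted p = 0.00037). March8, a ubiquitin ligase, fell by 0.21 (adjusted p = 0.0167), and Cd83 rose by 0.40 (adjusted p = 0.0307). That made 3 of the 4 tested genes higher and 1 lower, where 43.8% of all genes were called. March1 of the same list did not reach the filter. Fitted without the filter it was higher by 0.39 (adjusted p = 0.0231), where 18.4% of genes were called.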
